A study of Mus musculus with 8 samples.

Results

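The histone lysine methyltransferases and demethylases are the enzymes that write and erase methyl groups on histone tails. They were taken here by gene symbol: protein-coding genes named Kmt, Kdm, Setd, Nsd, Ehmt, Suv39h, Prdm or Smyd with a number, together with Setdb1, Setdb2, Dot1l, Ash1l and Setmar. In the count table of 25247 genes, 16384 of them protein-coding, 60 genes met that rule. They were sorted by the textbook role of their products into 12 groups, 8 of methyltransferases and 4 of demethylases. Another 5 genes of the rule (Kdm4d, Kdm5d, Prdm6, Prdm12 and Prdm13) had no row in the count table and could not be analysed. The antisense gene Kdm6bos was left out because it does not code for protein.

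Bulk RNA sequencing measured these genes in Langerhans cells, which are the antigen-presenting cells of the outer skin layer, taken from the ears of C57BL/6 mice. The sort kept DAPI- CD45+ Ly6G- CD103- MHCII+ CD24+ EpCAM+ cells of the epidermal sheet. The groups were mice of wild type (WT) and mice lacking EZH2 (EZH2 -/-, KO), and the series asked how Ezh2 bears on Langerhans cell migration and allergic contact dermatitis. How the allele was deleted, in which cells, and the age and sex of the mice are not given in the labels. The 8 libraries carry codes, and titles and descriptions give the same genotype for only 4 of them: RMN030 and RMN031 are WT, and RMN038 and RMN039 are KO. RMN032 and RMN033 are KO by title and WT by description, and RMN036 and RMN037 are WT by title and KO by description. Each comparison is therefore given for the 4 undisputed libraries, for the title codes (4 WT, 4 KO) and for the description codes (4 WT, 4 KO), with none preferred. By their codes the libraries fall into 2 runs, an earlier one from 030 to 033 and a later one from 036 to 039. Genotype and code run cannot be told apart in the undisputed libraries or under the description codes, whereas by title either run holds 2 WT and 2 KO libraries. Whether each library stands for another animal is not in the labels, and the p-values then measure only how these libraries vary, which may be technical variation.

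Methyltransferases of this kind mostly carry a SET domain and move a methyl group from S-adenosylmethionine to a given lysine. Methylation of H3K4, H3K36 and H3K79 mostly goes with active genes, and the higher methylation states of H3K9, H3K27 and H4K20 mostly with silent ones. Demethylases are either flavin enzymes (Kdm1a and Kdm1b) or JmjC enzymes that need iron and 2-oxoglutarate. Ezh2 places methyl groups on H3K27 as the catalytic subunit of Polycomb repressive complex 2, and Kdm6a and Kdm6b remove them.

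Library totals ranged from 11051402 to 18966195 counts. Ezh2 itself was at 15.7 and 22.4 CPM in RMN030 and RMN031, 15.2 and 14.9 in RMN032 and RMN033, 18.96 and 17.6 in RMN036 and RMN037, and 12.7 and 10.5 in RMN038 and RMN039 (CPM, counts scaled to the library total). By title every KO library lay below every WT library, as for 1.53% of all genes tested. The undisputed KO libraries also lay below the undisputed WT ones (25.2% of all genes), and by description the groups overlapped. Ezh2 reads were counted over the whole gene, so that this level does not test the deletion. Cd207 (langerin), the defining marker of these cells, was at 9706 to 11963 CPM, and Itgae, which codes for the CD103 that the sort excluded, at 4.34 to 13.7 CPM. Transcript of 8 keratinocyte markers summed to 12248 to 15718 CPM, with Krt14 alone at 6463 to 8876. These sums overlapped between the groups in every reading. Levels given here are therefore those of the whole sorted sample, and how much keratinocyte RNA adds to them was not tested. RMN030 and RMN031 stood apart in the sum of 15 T cell markers, none of them at 0 throughout (357 and 329.9 CPM against 47.2 to 63.9 in the other 6). They also stood apart in the sum of 5 thymocyte markers (49.7 and 79.4 against 0 to 1.68). Of the T cell markers, Cd2 and Thy1 overlapped with the other libraries. The later run had higher sums of 6 blood markers (581 to 1356 CPM against 122.5 to 227), 6 fibroblast markers (118 to 197 against 36.95 to 62.8), 4 macrophage markers (152 to 198 against 53.5 to 92.2) and 7 mast cell markers (47.6 to 66.4 against 31.1 to 43.4). Single markers such as Slc4a1, Col3a1 and Mrc1 overlapped between the runs. Kit, of the mast cell list, was at 18.2 to 30.9 CPM in the later run against 26.2 to 37.3 in the earlier. The later run's sum over 9 genes of the dissociation response was lower (8644 to 9466 against 9637 to 10909), although 2 heat shock genes of that list were higher in it, Hspa1a (1311 to 1513 against 609 to 706) and Hspa1b (1061 to 1235 against 495 to 585). Its mitochondrial share was higher (3.76% to 4.03% against 1.02% to 1.87%). RMN030 and RMN031 are WT in every reading. The sums of T cell and thymocyte markers therefore separate the undisputed groups, and by title and description their high values lie on the WT side, though the ranges overlap. The markers of the later run move with both the undisputed and the description-code contrast. The part of these markers in the results was not tested. Fits without RMN030 and RMN031, given below, also lose the only undisputed WT libraries and so do not test it. In bulk samples, fewer cells of a type and less RNA per cell cannot be told apart.

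CpG-rich promoters are the kind at which enzymes with a CXXC zinc finger, such as Kmt2a and Kdm2b, bind, and most genes of this set whose starts could be matched have more CG there than the median promoter. RefSeq promoter windows of 300 bases (250 before the start and 50 after it, GRCm38.p6) were matched for 44 of the 60 genes. The dinucleotide CG, which reads the same on both strands, occurred in 97.7% of these windows and in 94.6% of all 32851 mouse windows. The median number of CG per window was 26.5 (range 0 to 65) for the 40 matched genes with a mean of 1 CPM or more, 11 (3 to 24) for the 4 below it, and 7 over all windows. The matched start lies far inside the GENCODE gene model for 2 of these 4, Smyd1 (59952 bases) and Prdm8 (13671), and for 2 of the 40, Setd5 (27570) and Prdm1 (69753). Kdm4c was the gene with 0 CG in its window. The comparison sets 1 window per member, most of them with a mean of 1 CPM or more, beside all windows. The latter hold more than 1 window for some genes and were not limited by expression. Such counts describe the letters and are not sites or causes. The windows of 3 genes on which the comparisons below turn, chosen after their values were seen, are printed with every CG in capitals: Kmt2d (chr15:98871156-98871455, 27 CG), Prdm9 (chr17:15564305-15564604, 18 CG) and Kdm2b (chr5:122989050-122989349, 28 CG), all on the minus strand and written 5′ to 3′.
Kmt2d: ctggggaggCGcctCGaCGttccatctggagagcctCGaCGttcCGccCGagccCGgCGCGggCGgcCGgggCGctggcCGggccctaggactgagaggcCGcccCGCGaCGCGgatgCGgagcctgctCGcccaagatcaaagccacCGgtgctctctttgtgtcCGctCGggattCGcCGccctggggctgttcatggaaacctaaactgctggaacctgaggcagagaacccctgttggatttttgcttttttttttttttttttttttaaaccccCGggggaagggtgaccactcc
Prdm9: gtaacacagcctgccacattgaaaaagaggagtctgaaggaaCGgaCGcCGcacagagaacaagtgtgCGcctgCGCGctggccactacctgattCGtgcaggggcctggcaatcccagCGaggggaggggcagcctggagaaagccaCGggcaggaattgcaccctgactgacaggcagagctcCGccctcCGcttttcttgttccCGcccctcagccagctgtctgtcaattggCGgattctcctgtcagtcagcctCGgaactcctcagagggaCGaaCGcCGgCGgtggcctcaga
Kdm2b: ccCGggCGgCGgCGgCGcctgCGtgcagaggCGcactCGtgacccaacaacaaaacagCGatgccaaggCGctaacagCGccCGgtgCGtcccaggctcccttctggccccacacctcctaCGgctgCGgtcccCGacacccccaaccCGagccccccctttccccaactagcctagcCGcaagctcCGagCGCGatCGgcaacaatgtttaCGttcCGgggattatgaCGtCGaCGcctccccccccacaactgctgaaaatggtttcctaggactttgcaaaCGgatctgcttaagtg
The starts in the Kmt2d and Prdm9 windows lie within 1 base of the start of the GENCODE gene model. The Kdm2b window holds an inner start, 724 bases into the gene model. Prdm9, whose product acts in meiosis, has fewer CG than the other two but far more than the median window.

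Of the 60 genes, 54 had a mean of 1 CPM or more over the 8 libraries (90%), as had 72.6% of all protein-coding genes in the table. A total of 46 reached 10 CPM and 11 reached 100 CPM. Prdm11 lay just above 1 CPM with a mean of 2.15, and Prdm16 just below it with 0.879. Setmar, Smyd1, Prdm8 and Prdm14 also lay below 1 CPM. Smyd1, a muscle gene, had counts in 1 library alone, with 4 in RMN031, and a count of 0 in the others allows a level of up to 0.158 to 0.271 CPM (3 counts, counting error only). Prdm14, a gene of germ cell precursors, had 22 counts in RMN038, 2 in RMN033, 1 in RMN036 and 0 elsewhere. The summed level of the 60 genes was 3438 to 4004 CPM, lowest in RMN038 and highest in RMN031.

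Per length of merged exons (RPKM, the CPM per kilobase), the H3K27 demethylase Kdm6b had the highest level of all 60, at a mean of 53.8 RPKM. Its range over the libraries, 47.5 to 61.99, did not overlap that of Prdm1, the next gene (27.9 to 39.4, mean 33.5). Below them the neighbours in the order overlapped: Kdm2b (24.6 to 29.2), the H3K79 methyltransferase Dot1l (17.7 to 27.8), Kmt2e (19.2 to 25.4), Kdm5c (14.4 to 19.4) and Kmt5c (11.5 to 18.7). The median rank of the 60 genes by RPKM was the 61.1st percentile of protein-coding genes, and 42 lay above the protein-coding median. Spread between libraries was small: among genes of 10 to 500 CPM, the median coefficient of variation was 14.3% for the 46 members and 16.5% for all 8272 genes. Kdm2b had the lowest at 6.41%, and Prdm9 varied most among genes above 10 CPM at 71.1%.

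**Figure D1:**
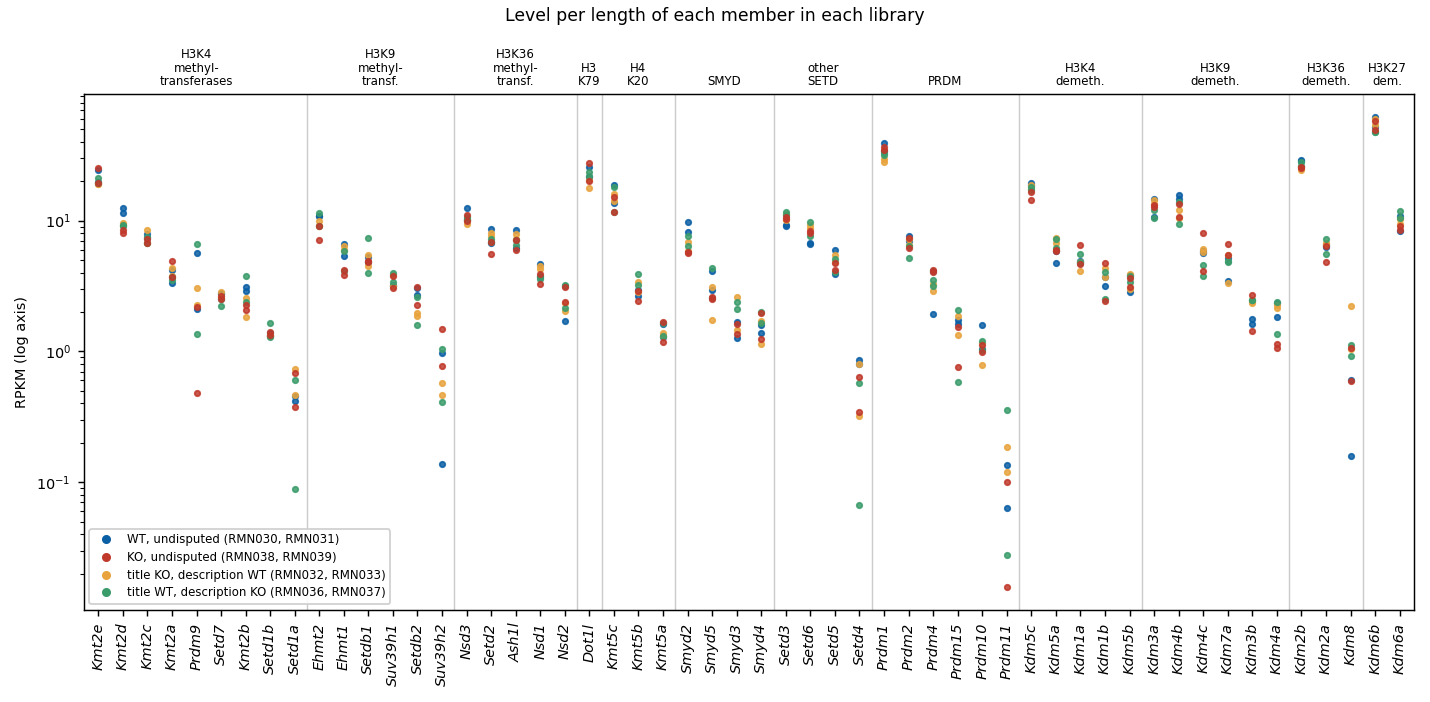
RPKM (log axis) of the 54 genes with a mean of 1 CPM or more, by role; each point is 1 of the 8 libraries, coloured by what its labels say. Kdm6b stands highest, from 47.5 to 62.0 RPKM, and the libraries lie close together except for genes of low level and Prdm9.

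No methyltransferase or demethylase passed the test between KO and WT under any reading of the labels. With edgeR, 0 of 54 tested genes passed in the undisputed libraries, where 0.794% of all 14727 genes did. The same test called 0 of 55 under the title codes (0% of 14630 genes) and 0 of 55 under the description codes (2.02%). DESeq2 called 0 of the 60 in each reading, against 1.26%, 0.0951% and 2.79% of all genes in the same order. These DESeq2 shares are over 23183 genes in the undisputed libraries and 25247 by title and by description. They include genes of low count that the edgeR filter left out, some of which may have no adjusted p, so they are not on the base of the edgeR shares. Limma voom called 0 in each, against 0.951%, 0% and 2.56% of all genes. At an unadjusted p under 0.05, edgeR gave 6 genes in the undisputed libraries, 3 by title and 2 by description (11.1%, 5.45% and 3.64% of those tested). Over all genes these shares were 11.3%, 4.59% and 12.6%.

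The intervals bound the difference between the groups as labelled in each reading, given how these libraries vary. They do not bound an effect of genotype, since labels are disputed. In the undisputed and description-code fits genotype also cannot be told apart from code run. In the undisputed libraries the 95% interval excluded a 2-fold difference for 38 of 54 genes and a 1.5-fold difference for 17. By title it excluded 2-fold for 47 of 55 genes and 1.5-fold for 35. By description the numbers were 46 and 33 of 55. Under all 3 readings the genes with wider intervals included Setd1a, Suv39h2, Setd4, Prdm9, Prdm11 and Kdm8. The median log2 fold change of the members was -0.05 in the undisputed libraries, -0.08 by title and 0.04 by description, against 0.00, 0.00 and -0.01 over all genes. The members below 0 numbered 30 of 54 in the undisputed libraries (50.2% of all genes), 35 of 55 by title (50.6%) and 27 of 55 by description (51.1%).

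**Figure D2:**
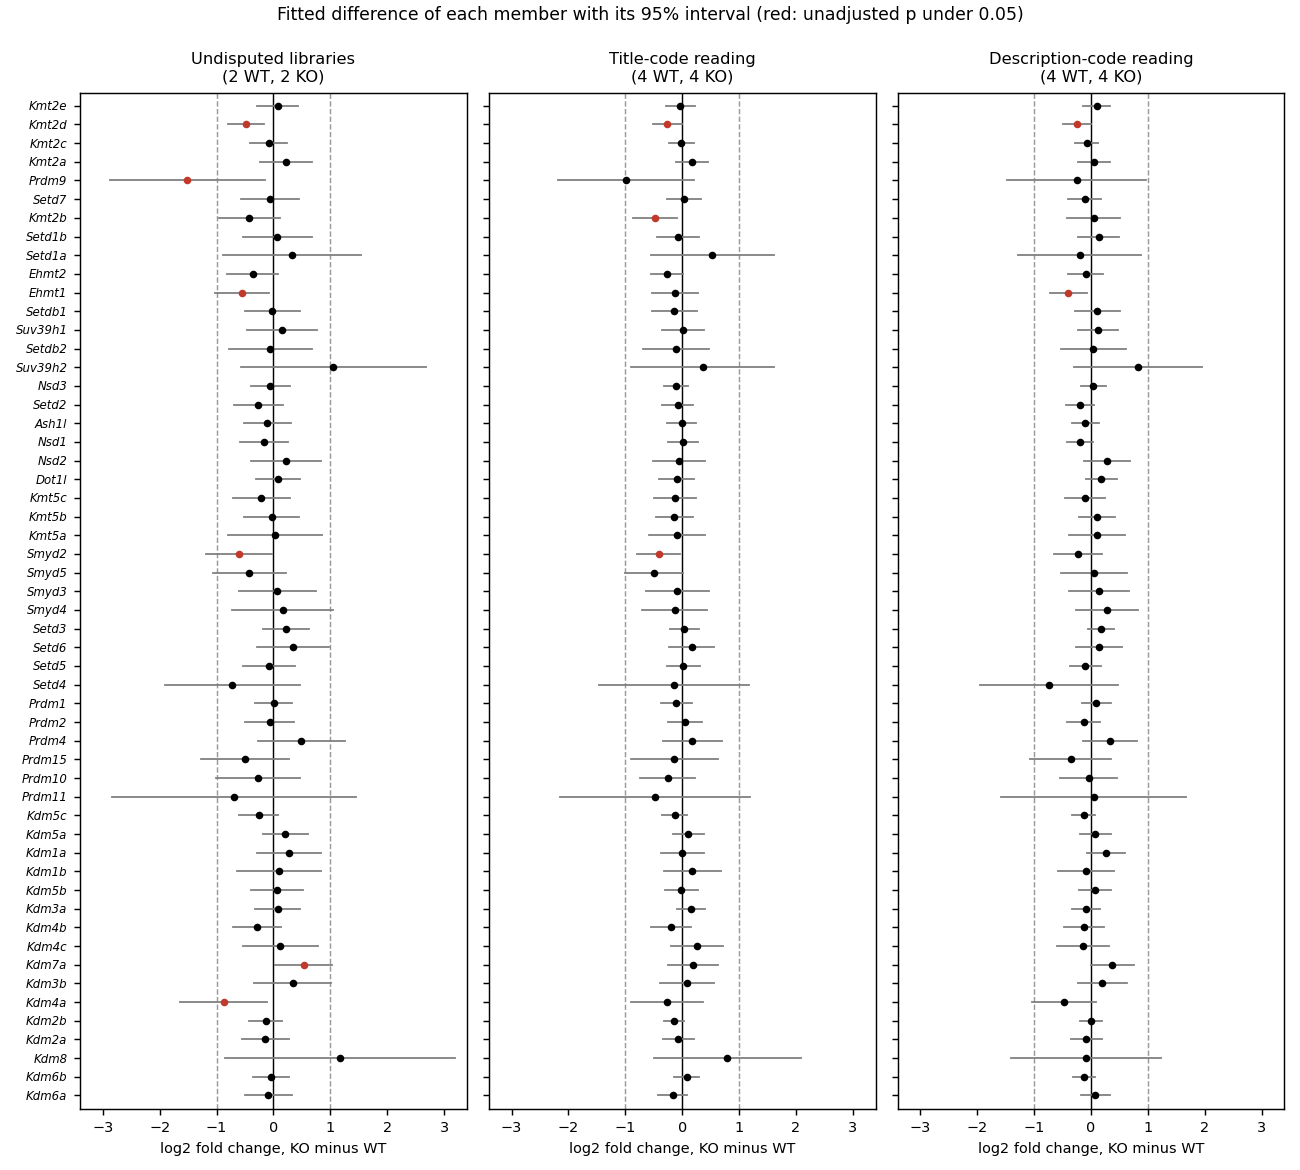
Log2 fold change, KO minus WT, with its 95% interval for the 54 genes with a mean of 1 CPM or more under the 3 readings; dashed lines mark a 2-fold difference and red points an unadjusted p under 0.05. Most intervals span 0 and lie inside the dashed lines, and Kmt2d is the one gene with a red point in all 3 panels.

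Whether the CPM ranges of KO and WT, scaled to library totals without TMM, overlapped was counted as a description. In the undisputed libraries they did not overlap for 18 of 54 members (33.3%), against 42.1% of all genes. KO was below WT for 14 of them and above for 4 (Kdm7a, Kdm5a, Setd6 and Setd3), against 25.2% and 16.9% of all genes. By title 1 member, Kdm2b, had separate ranges, with KO below, where 2.94% of all genes did (1.53% with KO below and 1.41% with KO above). By description 1 member, Kmt2d, did, with KO below, against 8.82% of all genes (5.09% below and 3.74% above).

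H3K4 methyltransferases numbered 9, all at 1 CPM or more and a summed level of 669.5 to 815 CPM. Kmt2d (MLL4), which with Kmt2c places H3K4 monomethylation at enhancers, had the smallest p of any member in the undisputed libraries. Kmt2d (ENSMUSG00000048154.15, chromosome 15, 98831669 to 98871204, minus strand; GRCm38, as all coordinates here) was at 247 and 227 CPM in RMN030 and RMN031, 184 and 192 in RMN032 and RMN033, 183 and 183 in RMN036 and RMN037, and 161 and 169 in RMN038 and RMN039. RMN030 and RMN031 were its highest libraries and RMN038 and RMN039 its lowest, and the other 4 lay between 183 and 192 CPM. The undisputed log2 fold change was -0.48 (SE 0.14, edgeR adjusted p = 0.209), and DESeq2 gave an adjusted p of 0.0758. It was -0.26 (SE 0.11, edgeR adjusted p = 0.998) by title and -0.25 (SE 0.11, edgeR adjusted p = 0.37) by description. RMN030 and RMN031 are the libraries high in T cell transcripts and also the only undisputed WT libraries. Without them the log2 fold change was -0.06 (SE 0.09) by title and -0.05 (SE 0.09) by description. By title the WT libraries left are all of the later run. T cell transcripts and the loss of undisputed WT libraries cannot be told apart in these fits. Without RMN031 alone Kmt2d passed in the undisputed libraries (log2 fold change -0.57, edgeR adjusted p = 0.00885), in a fit with 1 WT library that called 4.02% of all genes. Over all alternatives of that comparison its adjusted p ranged from 0.00885 to 0.541.

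Prdm9, the meiotic methyltransferase that marks recombination hotspots, was the most variable of the group. Its level (ENSMUSG00000051977.13, chromosome 17, 15543079 to 15564354, minus strand) was 9.16 and 24.3 CPM in RMN030 and RMN031, 9.80 and 13.2 in RMN032 and RMN033, 5.85 and 28.6 in RMN036 and RMN037, and 2.06 and 9.41 in RMN038 and RMN039. The 2 highest libraries, RMN031 and RMN037, are both WT by title, while by description 1 is WT and 1 KO, and the ranges overlapped in every reading. KO minus WT gave a log2 fold change of -1.51 (SE 0.62, edgeR adjusted p = 0.387) in the undisputed libraries, -0.99 (SE 0.55, edgeR adjusted p = 0.998) by title and -0.25 (SE 0.57, edgeR adjusted p = 0.919) by description. Prdm9 passed in the undisputed libraries without RMN039 (-2.98, edgeR adjusted p = 5.2e-06) and without a filter on low counts (-1.52, edgeR adjusted p = 0.00691), where 2.75% and 1.9% of all genes passed. In the first of these fits RMN038, at 2.06 CPM, was the single KO library. Over all alternatives of that comparison the adjusted p of Prdm9 ranged from 5.2e-06 to 0.776, and its log2 fold change was -0.67 without RMN031 and -0.78 without RMN038.

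Kmt2b (MLL2), which serves CpG-rich promoters, had the smallest p by title, with a log2 fold change of -0.48 (SE 0.18, edgeR adjusted p = 0.998). It was at 27.7 and 30.1 CPM in RMN030 and RMN031, 17.7 and 24.5 in RMN032 and RMN033, 35.9 and 22.9 in RMN036 and RMN037, and 19.7 and 21.9 in RMN038 and RMN039. RMN036 was the highest and RMN032 the lowest, and WT and KO by title overlapped because RMN037 lay below RMN033. The value was -0.43 (SE 0.24, edgeR adjusted p = 0.571) in the undisputed libraries and 0.05 (SE 0.22, edgeR adjusted p = 0.967) by description.

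Kmt2e, a member that binds methylated H3K4 and has little enzyme activity of its own, had the highest level of the group, at 21.03 RPKM. It was at 206 and 254 CPM in RMN030 and RMN031, 200.01 and 201 in RMN032 and RMN033, 223 and 204 in RMN036 and RMN037, and 265 and 204 in RMN038 and RMN039, with RMN031 and RMN038 above the other 6. Its exons share 9.31% of their bases with Srpk2 on the other strand. Kmt2c, the partner of Kmt2d in function, ranged from 136 to 174 CPM, and its log2 fold change was -0.08 (SE 0.15) in the undisputed libraries, -0.02 (SE 0.10) by title and -0.08 (SE 0.09) by description. Kmt2a (MLL1) ranged from 55.8 to 81.3 CPM, with 0.17 (SE 0.13) by title. Setd1b and Setd1a, the catalytic subunits that place most H3K4 trimethylation, ranged from 15.7 to 20.02 and 0.599 to 5.02 CPM. Setd1a shares 51.8% of its exon bases with another gene model on the same strand, so its counts are uncertain. Setd7, an H3K4 monomethyltransferase, ranged from 24.00 to 30.6 CPM.

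H3K9 methyltransferases were led by Ehmt2 (G9a) and Ehmt1 (GLP), which act together to place H3K9 mono- and dimethylation. Ehmt1 (ENSMUSG00000036893.15, chromosome 2, 24789928 to 24919614, minus strand) was at 43.7 and 54.1 CPM in RMN030 and RMN031, 48.5 and 51.7 in RMN032 and RMN033, 47.7 and 33.4 in RMN036 and RMN037, and 30.97 and 33.8 in RMN038 and RMN039. It lay between 43.7 and 54.1 CPM in RMN030 to RMN036 and between 30.97 and 33.8 in the last 3 libraries. The fitted log2 fold change was -0.55 (SE 0.22, edgeR adjusted p = 0.368) in the undisputed libraries, -0.13 (SE 0.19, edgeR adjusted p = 0.998) by title and -0.40 (SE 0.15, edgeR adjusted p = 0.247) by description, the smallest p of any member there.

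Its partner Ehmt2 was at 59.1 and 59.3 CPM in RMN030 and RMN031, 49.6 and 54.3 in RMN032 and RMN033, 63.2 and 50.1 in RMN036 and RMN037, and 39.2 and 49.7 in RMN038 and RMN039. RMN036 was the highest and RMN038 the lowest. The log2 fold change of Ehmt2 was -0.37 (SE 0.21, edgeR adjusted p = 0.558) in the undisputed libraries, -0.27 (SE 0.13, edgeR adjusted p = 0.998) by title and -0.10 (SE 0.15, edgeR adjusted p = 0.868) by description. Setdb1, which silences retroelements with Trim28, ranged from 27.3 to 50.8 CPM and Suv39h1, an enzyme of pericentric heterochromatin, from 16.2 to 20.8 CPM. Suv39h2, its paralogue, was among the higher values in the undisputed libraries, at 1.05 (SE 0.74, edgeR adjusted p = 0.67), with levels of only 0.611 to 6.53 CPM, RMN030 being the lowest. Setdb2 ranged from 6.41 to 12.5 CPM.

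H3K36 methyltransferases numbered 6, of which Setmar lay below 1 CPM. Nsd3 (mean 10.6 RPKM) and Setd2 (7.20), the enzyme of H3K36 trimethylation, were the highest, followed by Ash1l (7.07), Nsd1 (3.95) and Nsd2 (2.52), which place lower methylation states. Nsd3 ranged from 155 to 206 CPM over the libraries and Setd2 from 59.5 to 93.5 CPM, and WT and KO overlapped for both in every reading. The log2 fold changes of the 5 tested genes ran from -0.27 (Setd2) to 0.23 (Nsd2) in the undisputed libraries, from -0.11 (Nsd3) to 0.02 (Nsd1) by title and from -0.19 (Nsd1) to 0.28 (Nsd2) by description. None of the 5 had an unadjusted p under 0.05. Setmar had 12, 10, 20 and 12 counts in RMN030, RMN032, RMN033 and RMN036 and 0 in the other 4, among them both undisputed KO libraries and 2 libraries, RMN031 and RMN037, that are WT by title.

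Dot1l is the H3K79 methyltransferase and the one enzyme of the set without a SET or JmjC domain besides the Kdm1 pair. It was at 186 and 222 CPM in RMN030 and RMN031, 154 and 179 in RMN032 and RMN033, 206 and 190.2 in RMN036 and RMN037, and 176 and 242 in RMN038 and RMN039. RMN039 was the highest and RMN032 the lowest. On the log2 scale the difference was 0.08 (SE 0.17) in the undisputed libraries, -0.10 (SE 0.14) by title and 0.18 (SE 0.13) by description, with 95% intervals of -0.30 to 0.47, -0.40 to 0.20 and -0.10 to 0.45.

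Among the H4K20 methyltransferases, Kmt5c (14.9 RPKM) stood above Kmt5b (3.04), the other enzyme of H4K20 di- and trimethylation, and Kmt5a (1.43), which places the first methyl group. Kmt5c ranged from 46.2 to 74.8 CPM and Kmt5b from 36.01 to 57.4 CPM, with WT and KO overlapping for both in every reading. The 3 log2 fold changes ran from -0.22 to 0.03 in the undisputed libraries, from -0.14 to -0.09 by title and from -0.10 to 0.11 by description.

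SMYD genes, which code for enzymes with a split SET domain that act on both histones and other proteins, numbered 5, with mean levels from 7.02 RPKM (Smyd2) down to that of Smyd1, which lay below 1 CPM. Smyd2 was at 22.4 and 26.4 CPM in RMN030 and RMN031, 18.5 and 16.03 in RMN032 and RMN033, 17.4 and 20.9 in RMN036 and RMN037, and 15.3 and 15.7 in RMN038 and RMN039. RMN030 and RMN031 were its highest libraries. Its log2 fold change was -0.61 (SE 0.26, edgeR adjusted p = 0.427) in the undisputed libraries, -0.41 (SE 0.17, edgeR adjusted p = 0.998) by title and -0.22 (SE 0.19, edgeR adjusted p = 0.719) by description. Smyd2 shares 29.96% of its exon bases with an antisense gene model, whose reads cannot be told apart here since the strand setting is not given in the sources used here.

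Smyd5 ranged from 10.2 to 25.3 CPM and had -0.50 (SE 0.23, edgeR adjusted p = 0.998) by title. Smyd3 was at 11.7 and 15.3 CPM in RMN030 and RMN031, 13.4 and 23.9 in RMN032 and RMN033, 19.5 and 21.9 in RMN036 and RMN037, and 12.5 and 14.8 in RMN038 and RMN039, highest in RMN033. All 4 tested SMYD genes were below 0 by title, whereas 2 of 4 were below 0 in the undisputed libraries and 1 of 4 by description.

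The other SETD genes act largely outside histones: Setd3 methylates actin on histidine, and Setd6 methylates the NF-kB subunit RelA. Setd3 was at 54.98 and 56.3 CPM in RMN030 and RMN031, 67.8 and 61.2 in RMN032 and RMN033, 70.2 and 66.4 in RMN036 and RMN037, and 61.7 and 64.2 in RMN038 and RMN039. Its lowest libraries were RMN030 and RMN031, so that the undisputed groups did not overlap, with a log2 fold change of 0.22 (SE 0.18, edgeR adjusted p = 0.727). By title it was 0.03 (SE 0.12) and by description 0.17 (SE 0.11). Setd6 was also lowest in RMN030 and RMN031, at 12.6 and 12.8 CPM against 14.5 to 18.5 in the other 6, with an undisputed value of 0.34 (SE 0.29, edgeR adjusted p = 0.739). Setd5 ranged from 71.6 to 108 CPM and Setd4 from 0.36 to 4.66 CPM.

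PRDM genes code for zinc finger proteins with a domain related to SET, most of which regulate transcription. Prdm1 (Blimp-1), a repressor that acts in lymphocyte and myeloid differentiation, made up most of the group's summed level. Prdm1 (ENSMUSG00000038151.11, chromosome 10, 44437177 to 44528501, minus strand) was at 219.7 and 191 CPM in RMN030 and RMN031, 156 and 167 in RMN032 and RMN033, 177 and 185 in RMN036 and RMN037, and 205 and 194 in RMN038 and RMN039. Within the earlier run the libraries that are KO by title (RMN032 and RMN033) were its lowest, and within the later run those that are KO by title (RMN038 and RMN039) were the higher pair. The log2 fold change of Prdm1 was 0.00 (SE 0.15) in the undisputed libraries, -0.10 (SE 0.12) by title and 0.09 (SE 0.12) by description.

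Prdm2 (RIZ), an H3K9 methyltransferase, followed at 6.70 RPKM and ranged from 38.5 to 56.9 CPM. Prdm4 ranged from 9.47 to 20.5 CPM, lowest in RMN030, with an undisputed log2 fold change of 0.49 (SE 0.35, edgeR adjusted p = 0.671). Prdm15 and Prdm10 ranged from 6.59 to 23.7 and 7.35 to 14.7 CPM. Prdm16, which acts in brown fat and blood stem cells, had 39 counts in RMN036, 0 in RMN038 and 2 to 20 in the other 6.

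H3K4 demethylases numbered 5, all at 1 CPM or more, with a summed level of 293.6 to 338 CPM. Kdm5c, an X-linked enzyme that removes H3K4 di- and trimethylation, had the highest level at 17.5 RPKM. It was at 134 and 138 CPM in RMN030 and RMN031, 124 and 132 in RMN032 and RMN033, 128 and 121 in RMN036 and RMN037, and 103 and 117 in RMN038 and RMN039. The undisputed KO libraries were its lowest 2. KO minus WT gave a log2 fold change of -0.26 (SE 0.16, edgeR adjusted p = 0.597) in the undisputed libraries, -0.14 (SE 0.10) by title and -0.13 (SE 0.10) by description. Xist was at 379 to 629 CPM over the libraries and overlapped between the groups in every reading. The Y-linked genes Ddx3y, Eif2s3y and Uty had no more than 2 counts in any library.

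Kdm5a, its autosomal paralogue, was at 67.1 and 82.6 CPM in RMN030 and RMN031, 103 and 95.5 in RMN032 and RMN033, 87.1 and 102 in RMN036 and RMN037, and 83.7 and 83.97 in RMN038 and RMN039. RMN030 was the lowest and RMN032 and RMN037 the highest. The undisputed groups did not overlap, with a log2 fold change of 0.21 (SE 0.18, edgeR adjusted p = 0.735). Kdm1a (LSD1), the flavin demethylase of H3K4 mono- and dimethylation, ranged from 21.3 to 33.8 CPM, highest in RMN038, with 0.26 (SE 0.16, edgeR adjusted p = 0.542) by description. Kdm1b (LSD2) ranged from 13.4 to 26.2 CPM and Kdm5b from 46.9 to 64.7 CPM.

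H3K9 demethylases numbered 6 and differed in direction among themselves. Kdm7a, which acts on H3K9 and H3K27 dimethylation, was at 35.1 and 51.9 CPM in RMN030 and RMN031, 54.6 and 33.6 in RMN032 and RMN033, 48.2 and 49.2 in RMN036 and RMN037, and 66.7 and 55.3 in RMN038 and RMN039. The undisputed KO libraries were its highest 2. The fitted log2 fold change was 0.54 (SE 0.23, edgeR adjusted p = 0.416) in the undisputed libraries, 0.19 (SE 0.20, edgeR adjusted p = 0.998) by title and 0.37 (SE 0.17, edgeR adjusted p = 0.408) by description.

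Kdm4a, which acts on H3K9 and H3K36 trimethylation, pointed the other way. It was at 10.5 and 13.5 CPM in RMN030 and RMN031, 13.2 and 12.4 in RMN032 and RMN033, 13.8 and 7.91 in RMN036 and RMN037, and 6.11 and 6.61 in RMN038 and RMN039. RMN037, RMN038 and RMN039 were its lowest 3, as for Ehmt1. On the log2 scale the difference was -0.87 (SE 0.35, edgeR adjusted p = 0.374) in the undisputed libraries, -0.27 (SE 0.29, edgeR adjusted p = 0.998) by title and -0.48 (SE 0.26, edgeR adjusted p = 0.489) by description.

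Kdm3a and Kdm4b had the highest levels of the H3K9 demethylases, at 12.7 and 12.5 RPKM. Kdm3a, an enzyme of H3K9 mono- and dimethylation, ranged from 85.7 to 120.4 CPM, with 0.16 (SE 0.11, edgeR adjusted p = 0.998) by title, the smallest p among the genes above 0 in that reading. Kdm4b, a paralogue of Kdm4a, ranged from 46.2 to 76.3 CPM. The undisputed value of Kdm4b was -0.28 (SE 0.19, edgeR adjusted p = 0.648). Kdm4c and Kdm3b ranged from 22.1 to 46.96 and 20.1 to 37.9 CPM, and Kdm3b shares 24.6% of its exon bases with an antisense gene model.

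Of the H3K36 demethylases, Kdm2b and Kdm2a bind unmethylated CpG through a CXXC zinc finger, and Kdm2b brings a variant Polycomb repressive complex 1 to CpG islands. Kdm2b (ENSMUSG00000029475.16, chromosome 5, 122870665 to 122989823, minus strand) was at 317 and 311 CPM in RMN030 and RMN031, 267 and 279.97 in RMN032 and RMN033, 282 and 303 in RMN036 and RMN037, and 279 and 275 in RMN038 and RMN039. Every library that is WT by title, from 282 CPM upward, lay above every library that is KO by title, from 280.0 CPM downward. RMN036 and RMN033 lay next to each other across that gap. The gap holds only for CPM scaled to library totals. With the TMM factors used in the fits, 0.979 for RMN038 and 0.993 for RMN036, RMN038 (KO by title) lay above RMN036 (WT by title). Its log2 fold change was -0.15 (SE 0.08, edgeR adjusted p = 0.998) by title, -0.14 (SE 0.13) in the undisputed libraries and -0.01 (SE 0.09) by description. With the lowest spread of all members, its 95% interval by title was -0.32 to 0.03.

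Kdm2a ranged from 69.97 to 105 CPM, and its log2 fold change was -0.07 (SE 0.13) by title. Kdm8, which was described as a demethylase of H3K36 dimethylation and is also a peptidase and hydroxylase, had a low level. It was at 1.45 and 0.377 CPM in RMN030 and RMN031, 2.51 and 5.33 in RMN032 and RMN033, 2.69 and 2.22 in RMN036 and RMN037, and 1.42 and 2.53 in RMN038 and RMN039. RMN033 was the highest and RMN031 the lowest. KO minus WT gave a log2 fold change of 1.16 (SE 0.92, edgeR adjusted p = 0.712) in the undisputed libraries, 0.79 (SE 0.59, edgeR adjusted p = 0.998) by title and -0.08 (SE 0.61, edgeR adjusted p = 0.978) by description.

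The H3K27 demethylases Kdm6b (JMJD3) and Kdm6a (UTX) remove the mark that Ezh2 places, and neither passed the test between KO and WT in any reading. Kdm6b (ENSMUSG00000018476.7, chromosome 11, 69398508 to 69413675, minus strand) was at 359.8 and 431 CPM in RMN030 and RMN031, 416 and 377 in RMN032 and RMN033, 330.2 and 334 in RMN036 and RMN037, and 344 and 401 in RMN038 and RMN039. RMN031 was the highest and RMN036 the lowest, and WT and KO overlapped in every reading. The fitted log2 fold change was -0.04 (SE 0.14, edgeR adjusted p = 0.959) in the undisputed libraries, 0.08 (SE 0.10, edgeR adjusted p = 0.998) by title and -0.12 (SE 0.09, edgeR adjusted p = 0.64) by description. The 95% intervals were -0.36 to 0.28, -0.14 to 0.29 and -0.32 to 0.07, so that a 1.5-fold difference lay outside each of them. The antisense gene Kdm6bos covers 4.11% of its exon bases.

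Kdm6a (ENSMUSG00000037369.15, chromosome X, 18162575 to 18279936, plus strand), an X-linked subunit of the Kmt2c and Kmt2d complexes, was at 70.03 and 91.3 CPM in RMN030 and RMN031, 85.5 and 78.6 in RMN032 and RMN033, 87.8 and 99.2 in RMN036 and RMN037, and 75.7 and 70.9 in RMN038 and RMN039. RMN037 was the highest, and the lowest were RMN030 (WT) and RMN039 (KO). On the log2 scale the difference was -0.09 (SE 0.19, edgeR adjusted p = 0.923) in the undisputed libraries, -0.17 (SE 0.12, edgeR adjusted p = 0.998) by title and 0.08 (SE 0.12, edgeR adjusted p = 0.872) by description. The 95% intervals were -0.50 to 0.32, -0.43 to 0.08 and -0.18 to 0.34. The direction of both genes turned in the undisputed libraries without RMN031, to 0.08 for Kdm6a and 0.06 for Kdm6b.

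**Figure D3:**
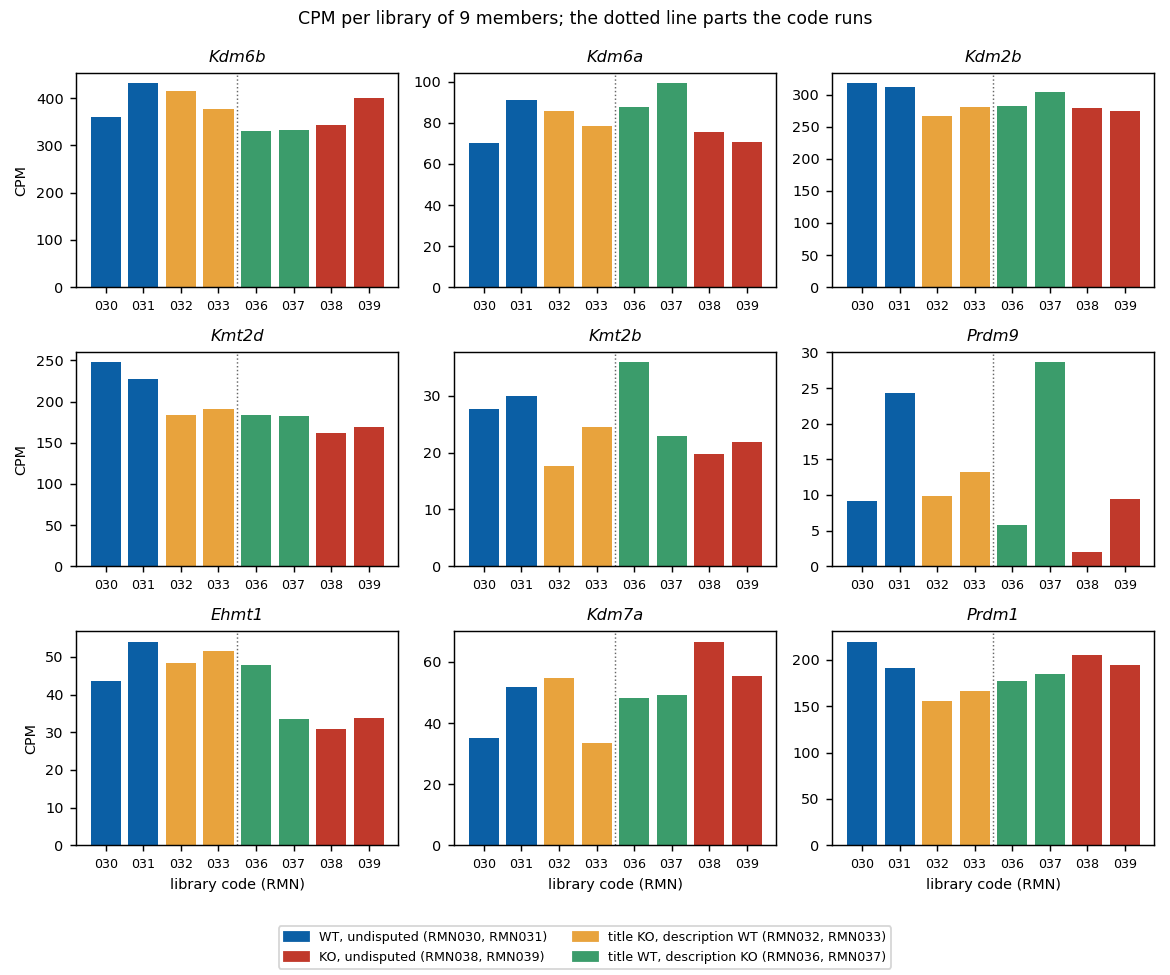
CPM of 9 genes in each of the 8 libraries, coloured by what the labels say; each panel has its own axis from 0, and the dotted line parts the earlier from the later code run. Kmt2d is highest in RMN030 and RMN031, Ehmt1 is low in RMN037 to RMN039, Prdm9 is high in RMN031 and RMN037, and Kdm6b and Kdm6a overlap between WT and KO.

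Under the title codes the difference between KO and WT can be taken within each run, from libraries that the 2 runs do not share. Of 55 members, 24 had the same sign in both runs (43.6%), against 49.3% of 14331 genes. KO was lower in both runs for 18 members, against 24.5% of all genes, and higher in both for 6, against 24.8% of all genes. The Pearson correlation of the 2 log2 fold changes was -0.28 across the 55 members and 0.04 across all genes, as a description over genes, which are not independent replicates. Within the earlier run edgeR called 0 of 56 members (0.375% of all genes), with 7 at an unadjusted p under 0.05 (12.5%, against 7.60% of all genes). Within the later run it called 0 of 55 (0% of all genes), with 1 at an unadjusted p under 0.05 (1.82%, against 7.35%).

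The difference between the runs was tested as an interaction of genotype and run under the title codes. With edgeR, 0 of 56 members passed, against 0.0186% of 16146 genes, and 4 had an unadjusted p under 0.05 (7.14%, against 7.93% of all genes). DESeq2 called 0 of 60 members and 0.404% of all genes. Of the 56 interaction values 28 were below 0, as were 50.2% of all genes. Prdm1 had the smallest p, with an interaction of 0.57 (SE 0.17, edgeR adjusted p = 0.416), and a DESeq2 adjusted p of 0.160. The log2 fold change of Prdm1 was -0.39 (SE 0.15) within the earlier run and 0.17 (SE 0.09) within the later one. The other 3 were Kdm5a (-0.51 (SE 0.20, edgeR adjusted p = 0.56)), Smyd3 (-0.996 (SE 0.43, edgeR adjusted p = 0.599)) and Kdm8 (-2.36 (SE 1.05, edgeR adjusted p = 0.618)). Kdm8 is at the level of a few CPM, and its interval of -4.67 to -0.04 is the widest of these 4. After Prdm1, the positive values with the smallest p were those of Setdb2 at 1.02 (SE 0.47, edgeR adjusted p = 0.637) and Kmt2e at 0.41 (SE 0.20, edgeR adjusted p = 0.675). The 95% interval of the interaction excluded 2-fold for 31 of 56 members and 1.5-fold for 5. It was thus less precise than the main fits of the undisputed libraries, the title codes and the description codes.

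**Figure D4:**
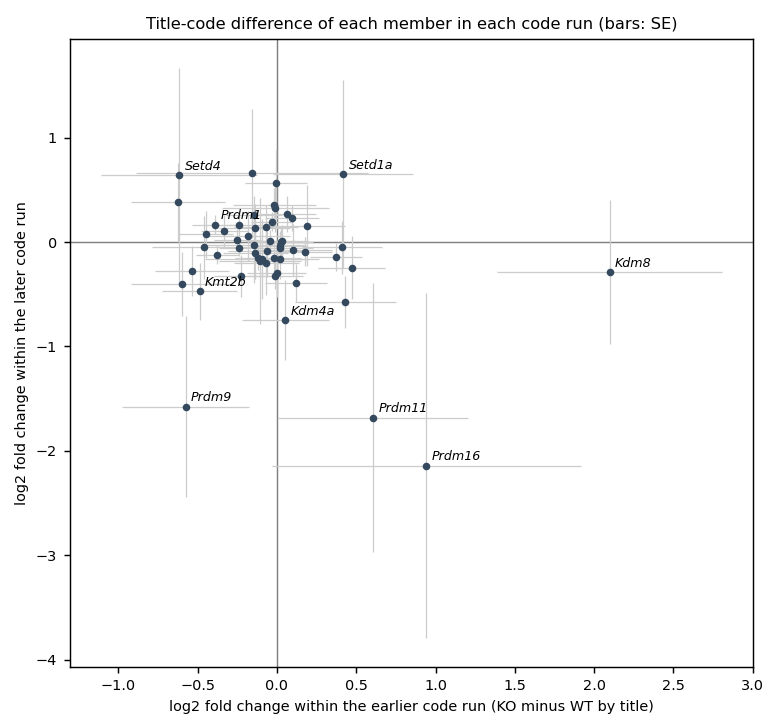
Log2 fold change, KO minus WT by title, within the earlier run (horizontal axis) and within the later run (vertical axis) for the 55 genes tested in both; bars are standard errors. The points crowd around 0 on both axes, and Kdm8, Prdm11, Prdm16 and Prdm9 lie far from 0 with long bars. The mean levels are 2.32, 2.15, 0.879 and 12.8 CPM.

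A list of 47 genes outside the symbol rule was followed as well: subunits of the COMPASS complexes that hold the H3K4 methyltransferases, partners of the H3K9 enzymes, of LSD1 and of Dot1l, and SET or JmjC genes named otherwise. Of 42 tested in each fit, 0 passed in the undisputed libraries, 0 by title, 1 by description and 0 in the interaction, where 0.794%, 0%, 2.02% and 0.0186% of all genes passed. At an unadjusted p under 0.05 the counts were 4, 1, 11 and 0 of 42, against 11.3%, 4.59%, 12.6% and 7.93% of all genes. The gene that passed was Aff1, a scaffold of the elongation complexes that partner with Dot1l. It was at 122 and 128 CPM in RMN030 and RMN031, 140.02 and 146 in RMN032 and RMN033, 95.5 and 101 in RMN036 and RMN037, and 107 and 92.9 in RMN038 and RMN039. All 4 libraries that are WT by description lay above all 4 that are KO, which is the split of the code runs. Aff1 was lower in KO by description, with a log2 fold change of -0.39 (SE 0.09, edgeR adjusted p = 0.0491), a DESeq2 adjusted p of 0.00181 and a limma voom adjusted p of 0.0310. Aff1 did not pass without RMN030 and RMN031, in any fit that left out 1 library, with RLE size factors, with the replicate block or without a filter on low counts.

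Nearest to the threshold after Aff1 stood Riox1, a JmjC gene, at 1.03 (edgeR adjusted p = 0.0525) by description. In the undisputed libraries the smallest p of these genes belonged to L3mbtl2, a Polycomb group protein with MBT domains (-1.31, edgeR adjusted p = 0.197), and to Hdac2, a deacetylase that works with LSD1 (0.89, edgeR adjusted p = 0.240). By title they belonged to Ezh2 (-0.49, edgeR adjusted p = 0.998) and Phf8 (0.39, edgeR adjusted p = 0.998). DESeq2, run on all 47 of these genes without the edgeR filter, called 5 by description, where it called 2.79% of all genes: Aff1, Ash2l, Hdac2, Jarid2 and Riox1.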

How the data were processed

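Bulk RNA-seq libraries of sorted Langerhans cells were analysed as raw counts per gene, deposited by the authors for 25247 Ensembl genes in 8 libraries with 0 columns left unused. The submitters' processing notes name STAR 2.5.2b, featureCounts 1.5.0 and the build GRCm38 (mm10). The annotation, how read pairs were handled and whether strand was used are not given in the sources used here. Among counts from 1 to 20, 60.1% were even, so mates may have been counted separately and counting intervals are then too narrow. Symbols were matched for 25080 identifiers, and gene types, coordinates and merged exon lengths came from a GENCODE annotation of GRCm38. Columns were joined to samples by library code.

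CPM and RPKM were computed from the column totals. Differences were fitted with edgeR 4.0.16 in R 4.3.3 over all genes (filterByExpr, TMM, robust quasi-likelihood F-tests, two-sided), with Benjamini-Hochberg adjustment over all genes tested and a threshold of 0.05. Standard errors and 95% intervals come from the F statistic. The step was also run on simulated counts with known groups and no difference between runs, which does not test it under the disputed labels here. As alternatives, DESeq2 1.42.0 and limma 3.58.1 voom with quality weights replaced edgeR, RLE replaced TMM, and the filter was dropped or set at 1 CPM. Other alternatives were fits with 1 library removed, with a block for the replicate number, with the code run or the title genotype as a covariate, on each code run alone, and on all libraries but RMN030 and RMN031. The members, lists and rules were chosen with earlier results of these data known. Values per library were to be given for the 3 members of smallest p in each direction of each fit, the 2 of highest RPKM in each role, H3K27 demethylases and X-linked members, and the genes next to 1 CPM. This was not done for every such member: Nsd3, Setd2, Kmt5c, Kdm3a and the X-linked Suv39h1, among others, are given by their range. Other members are given by their range, and Smyd1, Prdm14, Setmar, Prdm9, Smyd5 and Kdm2b were given more room after their values were seen. The values of 1 member are not reported here.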

Additional observations from a re-analysis of the deposited data

Results flagged for a closer look

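Among 140 groups of 4 libraries examined over 35 named members, 5 held a library far from the other 3. By chance about 1 group in 20 does, which is 7 of them. Ehmt1, an H3K9 methyltransferase gene, was at 47.73 CPM in RMN036 against 30.97 to 33.75 in the other libraries that are KO by description. Kmt2a was at 81.35 CPM in RMN039 against 58.5 to 62.05 in the same group, and Smyd5 at 25.28 CPM in RMN036 against 14.63 to 15.29. Kmt2e stood out in 2 groups. Its level was 265.2 CPM in RMN038 against 200.02 to 203.5 in the other libraries that are KO by title, and 254.4 CPM in RMN031 against 200.02 to 205.9 in the other libraries that are WT by description.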

How the results depend on the processing

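The count of methyltransferases and demethylases called stayed at 0 under every alternative of the title codes, the description codes and the interaction. In the undisputed libraries it was 1 without a filter on low counts, and 0 to 1 when each library was left out in turn. With the replicate block it was 0 under both codes. The number of companion genes called in the undisputed libraries was 1 without a filter and 0 to 3 when each library was left out. By description the 1 companion gene became 2 with a filter at 1 CPM, 5 with DESeq2, 0 with RLE size factors, 2 with limma voom, 0 with the replicate block, 2 with the title genotype as covariate, 0 without RMN030 and RMN031, and 0 to 1 when each library was left out. The cause was not tested. By title, 31 of 55 members had opposite signs in the 2 code runs, among them Prdm1 (-0.39 in the earlier run, 0.17 in the later), Dot1l (-0.33, 0.10), Kmt2e (-0.24, 0.16), Kdm6b (-0.0322, 0.19) and Kdm8 (2.10, -0.287). Leaving out each library in turn, Kdm6a ranged from -0.0117 to 0.142 by description and from -0.256 to 0.0814 in the undisputed libraries, and Kdm6b there from -0.167 to 0.065.

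Counts over all genes depended more on the method: 117 in the undisputed libraries against 293 with DESeq2, 440 without a filter and 263 to 629 with a library left out, and 296 by description against 704 with DESeq2, 174 with the replicate block and 140 to 219 with a library left out. By title 0 genes passed, against 24 with DESeq2 and 1 without a filter, and 3 in the interaction, against 102 and 178. Deviations of libraries of the same replicate number correlated weakly (0.05 to 0.10 by title and -0.01 to 0.03 by description). Not every library correlated best with its own number. By title the replicate numbers also follow the code run. These values do not settle whether the numbers mark pairs. The undisputed groups share no replicate number. Leaving out a library there leaves 1 in a group, assumed to vary like the other. How far depth or the number of libraries limits these tests was not tested.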
